A study of Vitis amurensis with 6 samples.

Results

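The WRKY transcription factor family of grape was followed in leaves of Vitis amurensis, a cold-hardy wild grape of north-east Asia, taken from plants kept in vitro. Its 57 members were taken from a list of grape 12X locus identifiers of WRKY genes, and all 57 were among the 31845 genes of the expression table. The table pairs no identifier with a gene name, so membership rests on that list, and neither the subgroup of a member nor its closest Arabidopsis gene is given here. The cold group spent 2 h at 4 °C, and the control group, labelled with 0 h of cold, stayed at 26 °C. The plants of both groups were wild-type and one-month-old, had been grown on B5 medium with the auxin IBA, and stood under the same light of about 100 µmol per square metre and second. Leaf RNA was sequenced in 3 libraries per group. Nothing in the labels ties each library to plants of its own, so p-values measure the spread between these libraries only, which may be technical. The hour of sampling is not labelled, and the passing of 2 h and the move to the incubator cannot be told apart from the temperature.

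WRKY proteins are plant transcription factors that bind DNA through a domain named after a conserved run of its amino acids, and they recognise the W-box, a short element in many stress and defence promoters, including those of other WRKY genes. The family is sorted into groups by how many such domains a protein has and by its zinc finger. Many members act early in responses to pathogens, wounding and abiotic stress, in which some activate and others repress their targets. In grape, a WRKY factor is known to work with a MYB factor at stilbene synthase promoters.

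Library totals, recovered from the deposited values, were between 18773557 and 21217704 reads in cold and between 16437001 and 16657708 reads in control. Levels are given in FPKM, reads per kilobase of gene and of library size, as the authors deposited them, so they can be compared between genes. Values of a group are listed in the order of libraries 1, 2 and 3. Control library 1 stood apart from control libraries 2 and 3 for a large part of this family, as described below, and results that rest on it are given with and without it. Leaf marker genes were not checked, because no identifier is tied to a marker. In bulk leaf, fewer cells that express a gene and less RNA per cell cannot be told apart.

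After 2 h of cold, more WRKY genes were higher than lower. Of the 57 members, 44 averaged 1 FPKM or more over the 6 libraries and were tested together with all other such genes. Among these, 22 rose, 4 fell and 18 did not pass the test (limma-trend on log2(FPKM + 1), Benjamini-Hochberg adjusted p under 0.05 over 17155 genes). Over all tested genes, 21% were called higher and 13.4% lower, against 50% and 9.09% of the tested members. A rise of at least 2-fold was found for 16 members, or 36.4%, against 6.60% of all tested genes. The 2-fold limit and the limma-trend log2 changes are on the log2(FPKM + 1) scale, which understates FPKM ratios of low genes. None of the 44 fell at least 2-fold by this test, where 3.05% of all tested genes did; 1 did so with limma-voom on the recovered reads. The median change was 0.83 on the log2 scale over the tested members and 0.08 over all tested genes. The lowest cold library exceeded the highest control library for 25 of the 44 members, against 31.6% of all tested genes, and the cold libraries were all lower for 6 members, against 19.7%. Scaling the libraries to each other shifted the split: median-of-ratios scaling called 2807 genes higher and 2922 lower, against 3606 and 2295 as deposited, and quantile normalization 2660 and 3183. Under either scaling 19 members were called higher, of which 14 rose at least 2-fold, and 5 were called lower. Of all 17155 tested genes, 1026 rose at least 2-fold under median-of-ratios scaling and 933 under quantile normalization.

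The filter bears on these counts. Of the 44 members, 7 had a control mean under 1 FPKM and passed through their level in cold, so they had to differ. With no filter beyond a value above 0, 55 members were tested and 21 of them, or 38.2%, were called higher, against 15.1% of 25054 genes. Rises of at least 2-fold were then called for 15 of the 55 members, against 1174 of the 25054 genes.

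**Figure D1:**
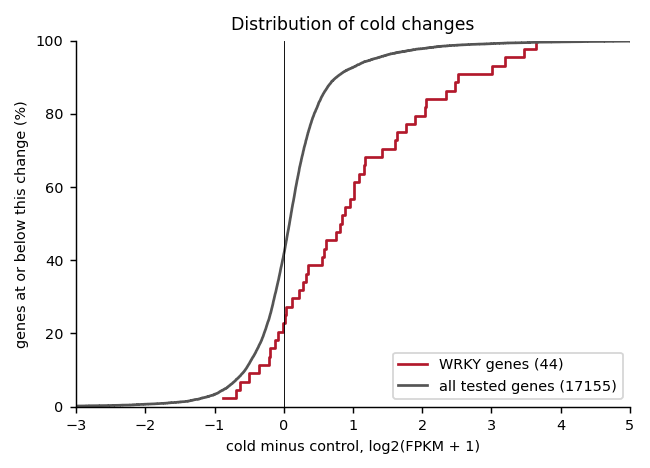
Cumulative share of genes (y axis, percent) at or below a given change between cold and control (x axis, log2(FPKM + 1)), for the 44 tested WRKY genes and all 17155 tested genes. The curve of the WRKY genes lies to the right, with a median of 0.83 against 0.08; a few genes with larger changes in either direction lie beyond the axis.

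**Figure D2:**
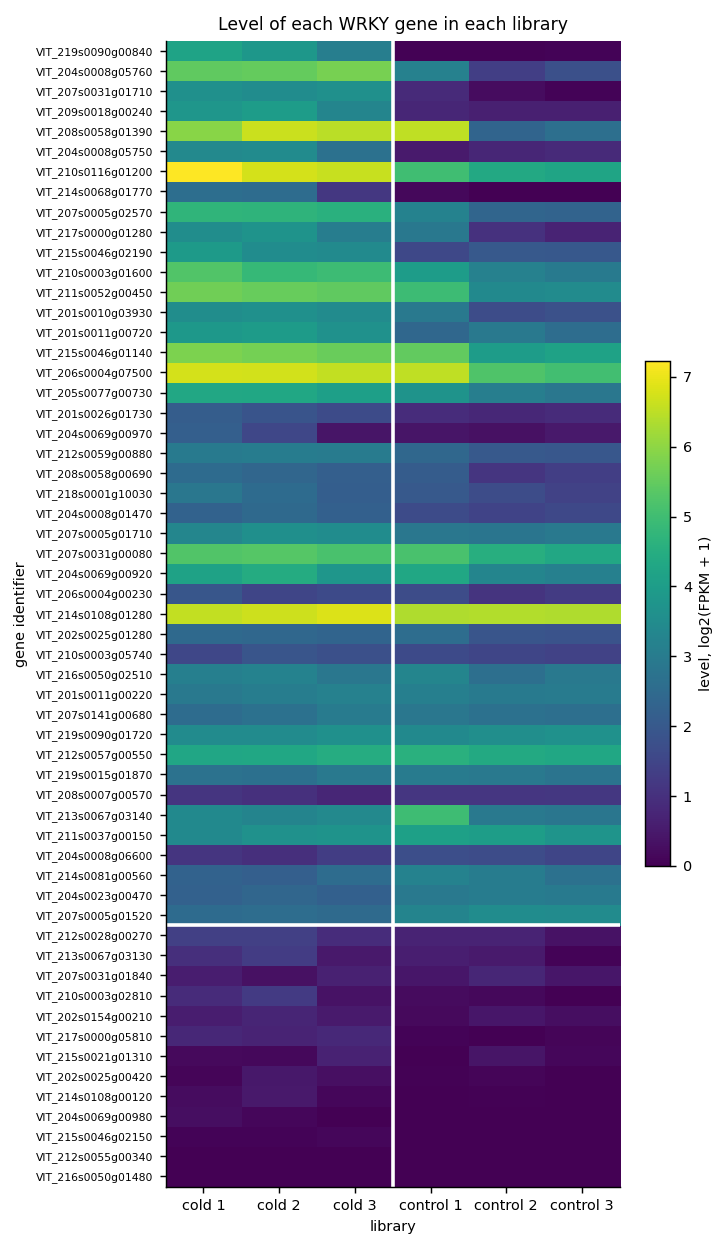
Level of each of the 57 WRKY genes (rows) in each library (columns, cold left of control) as log2(FPKM + 1). Rows above the white line are the 44 tested members from the largest rise to the largest fall, and rows below it the 13 under the filter; in many upper rows control library 1 is brighter than control libraries 2 and 3.

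A set of 6 of the 57 members, or 10.5%, stood under 1 FPKM in every control library and above 1 FPKM in every cold library, as did 438 of the 31845 genes of the table, or 1.38%. The set was picked for this difference, so its direction is a description, and its members passed the filter through their level in cold. VIT_219s0090g00840 reached 17.1, 13.2 and 7.56 FPKM in cold, against 0.0267, 0.0271 and 0.0538 FPKM in control, a log2 change of 3.65 (standard error 0.27, adjusted p by limma-trend = 0.000404). Its control values stand for 1, 1 and 2 reads and its cold values for 720, 577 and 360 reads. Pooled over libraries and set against depth, that is 346 times as many reads in cold, with an exact 95% interval of 135 to 1271 that covers counting error only. In warm leaves this gene was close to undetected, and no cold library came near the control range.

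VIT_207s0031g01710 stood at 11.3, 10.4 and 11.2 FPKM in cold, against 0.802, 0.174 and 0.0576 FPKM in control. Its cold libraries lay close together, and its control libraries differed by more than 10 times, with library 1 the highest. The log2 change was 3.19 (standard error 0.21, adjusted p by limma-trend = 0.000282). By mean FPKM it was 31.8 times higher in cold than in all controls and 94.7 times higher than in control libraries 2 and 3. Its control values stand for only 14, 3 and 1 reads, against 222, 212 and 250 reads in cold. The sizes of these ratios and the spread of the controls are therefore loosely set.

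VIT_209s0018g00240 had 12.9, 15 and 8.71 FPKM in cold, against a narrow 0.698, 0.550 and 0.546 FPKM in control. Its log2(FPKM + 1) change was 3.01 (standard error 0.19, adjusted p by limma-trend = 0.000261). The ratio of mean FPKM was 20.4, which is larger than that change gives, because the added 1 shrinks ratios of low values. Control library 1 made little difference to this gene, whose log2 change without it was 3.06. The libraries of the groups were far apart.

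VIT_214s0068g01770 had 5.09, 4.82 and 1.26 FPKM in cold, against 0.110, 0 and 0 FPKM in control. Only 2 control reads were found, so the size of the rise is loosely set: the pooled reads differed 98.1 times, with an exact 95% interval of 26.9 to 815 for counting error. Cold library 3 stood at 0.254 of the mean of the other cold libraries. The log2 change was 2.06 (standard error 0.39, adjusted p by limma-trend = 0.00813).

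Within the set the smallest change was that of VIT_201s0026g01730, with 3.42, 2.67 and 2.12 FPKM in cold, against 0.891, 0.757 and 0.867 FPKM in control. Its log2 change was 1.01 (standard error 0.16, adjusted p by limma-trend = 0.00471). The remaining gene of this set, VIT_204s0008g05750, is described next to its neighbour.

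VIT_204s0008g05750 and VIT_204s0008g05760 carry identifiers that follow each other on scaffold field 0008 of chromosome field 04, and both rose strongly. VIT_204s0008g05750 had 9.64, 10.1 and 5.51 FPKM in cold, against 0.431, 0.715 and 0.828 FPKM in control (log2 change 2.47, standard error 0.23, adjusted p by limma-trend = 0.000783). VIT_204s0008g05760 had 43.1, 44.3 and 52.0 FPKM in cold, against 7.96, 1.55 and 2.39 FPKM in control (log2 change 3.47, standard error 0.44, adjusted p by limma-trend = 0.00208). The members of this pair differed in their library order. In cold library 3, VIT_204s0008g05750 was at its lowest cold level and VIT_204s0008g05760 at its highest, and control library 1 was the lowest control for VIT_204s0008g05750 and the highest for VIT_204s0008g05760. By mean FPKM VIT_204s0008g05760 was 11.7 times higher in cold than in all controls and 23.6 times higher than in control libraries 2 and 3, and its log2 change without control library 1 was 4.01.

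The other 9 members that rose at least 2-fold were already expressed in warm leaves. The one that weighed most was VIT_210s0116g01200, with 148, 107 and 96.9 FPKM in cold, against 31.0, 19.4 and 17.7 FPKM in control. It rose 5.19 times by mean FPKM, a log2 change of 2.34 (standard error 0.24, adjusted p by limma-trend = 0.00112). With a mean of 118 ± 27.2 FPKM (± SD over 3 libraries) it had the highest mean of the WRKY genes in cold leaves, although VIT_214s0108g01280 stood above it in cold library 3 at 114 FPKM. Its control mean of 22.7 ± 7.25 FPKM (± SD over 3 libraries) ranked it 6 in warm leaves.

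VIT_207s0005g02570 had 25.4, 24.7 and 22.9 FPKM in cold, against 8.21, 4.10 and 3.96 FPKM in control, a log2 change of 2.04 (standard error 0.24, adjusted p by limma-trend = 0.00167). VIT_210s0003g01600 had 37.6, 27.4 and 29.8 FPKM in cold, against 15, 7.94 and 6.77 FPKM in control, a log2 change of 1.64 (standard error 0.28, adjusted p by limma-trend = 0.00552). In both genes control library 1 was about 2 times the mean of the other controls and still well below every cold library. VIT_215s0046g02190 and VIT_201s0011g00720 showed the opposite order within the controls, with control library 1 the lowest. VIT_215s0046g02190 had 14.3, 10.3 and 9.96 FPKM in cold, against 1.95, 3.08 and 2.98 FPKM in control, a log2 change of 1.77 (standard error 0.18, adjusted p by limma-trend = 0.00114). VIT_201s0011g00720 had 13.4, 14.6 and 11.5 FPKM in cold, against 4.30, 6.58 and 5.03 FPKM in control, a log2 change of 1.18 (standard error 0.16, adjusted p by limma-trend = 0.00243).

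For 4 members the rise was called, but their control libraries were spread and the call was not kept throughout. VIT_217s0000g01280 had 10.7, 12.1 and 7.35 FPKM in cold, against 6.41, 1.03 and 0.650 FPKM in control; its log2 change was 1.90 (limma-trend, adjusted p = 0.0384) and 2.57 without control library 1 (adjusted p = 0.000439). By mean FPKM it was 3.72 times higher than in all controls and 12.0 times higher than in control libraries 2 and 3. Leaving out any library other than control library 1 ended this call, with adjusted p between 0.0675 and 0.118, as did testing with no filter (adjusted p = 0.0567).

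VIT_211s0052g00450 had 49.6, 45.5 and 42.9 FPKM in cold, against 29.7, 9.76 and 10.1 FPKM in control; its log2 change was 1.60 (limma-trend, adjusted p = 0.0212) and 2.10 without control library 1 (adjusted p = 3.7e-05). Its call was likewise lost without any library other than control library 1, with adjusted p between 0.0548 and 0.0688. VIT_201s0010g03930 had 10.6, 11.4 and 10.1 FPKM in cold, against 6.59, 2.18 and 2.48 FPKM in control, a log2 change of 1.42 (limma-trend, adjusted p = 0.0162) and of 1.81 without control library 1 (adjusted p = 0.000118). By mean FPKM it was 2.85 times higher than in all controls and 4.59 times higher than in control libraries 2 and 3. The call of VIT_201s0010g03930 was lost without cold library 1, cold library 2 or control library 3, with adjusted p between 0.0521 and 0.0601. VIT_205s0077g00730 had 19.3, 18.6 and 15.9 FPKM in cold, against 12.1, 7.44 and 6.28 FPKM in control, a log2 change of 1.02 (limma-trend, adjusted p = 0.0132), and lost its call without cold library 2 (adjusted p = 0.0517). In all 4 genes each cold library stood above each control library. Of the 16 members that rose at least 2-fold, the other 12 were called in every alternative that tested them.

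**Figure D3:**
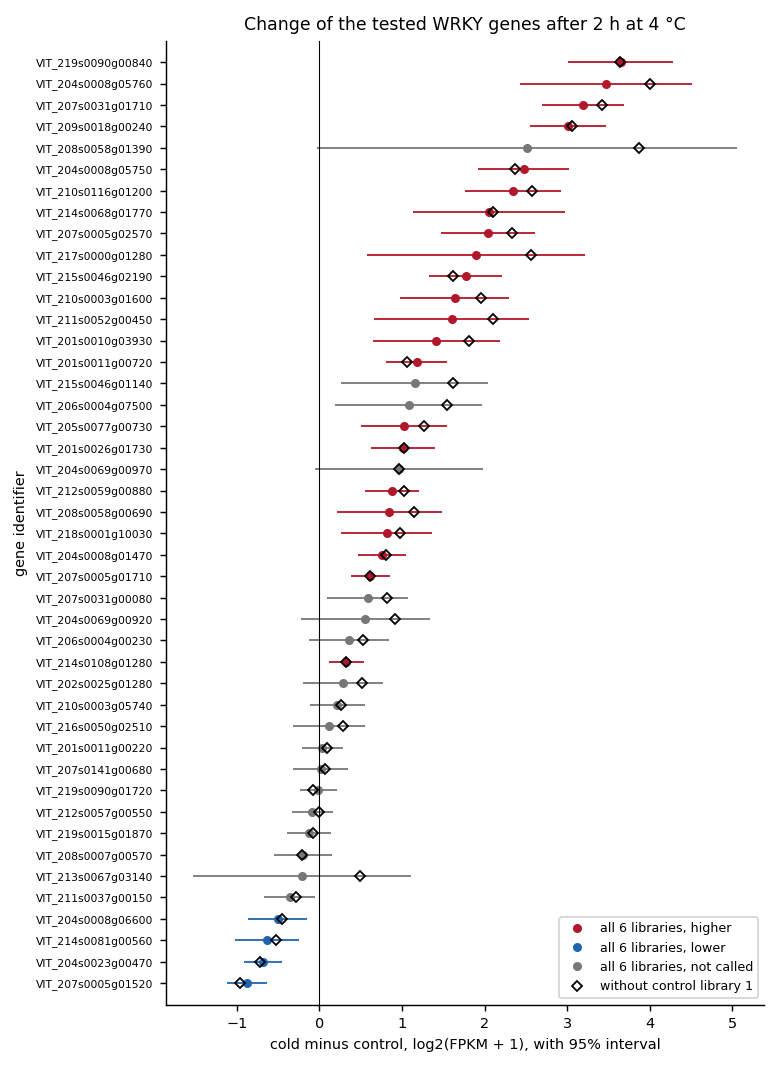
Change between cold and control on the log2(FPKM + 1) scale (x axis) for the 44 tested WRKY genes (rows), as points with 95% intervals from the fit on all 6 libraries, coloured by call; open diamonds give the change without control library 1. The diamonds lie to the right of the points for most of the uncalled genes with wide intervals, such as VIT_208s0058g01390 at 3.87 against 2.52.

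Rises below the 2-fold limit on the log2(FPKM + 1) scale were called for 6 members. By mean FPKM, VIT_212s0059g00880, VIT_204s0008g01470, VIT_208s0058g00690 and VIT_218s0001g10030 were 2.065, 2.047, 2.088 and 2.095 times higher in cold. The ratios of VIT_207s0005g01710 and VIT_214s0108g01280 were 1.621 and 1.259. The clearest of the 6 were VIT_212s0059g00880, VIT_204s0008g01470 and VIT_207s0005g01710, which were called in every alternative. VIT_212s0059g00880 had 6.88, 7.15 and 7.06 FPKM in cold, against 4.30, 3.03 and 2.89 FPKM in control (log2 change 0.88, limma-trend adjusted p = 0.00428). VIT_204s0008g01470 had 3.87, 4.48 and 3.62 FPKM in cold, against 2.16, 1.73 and 1.97 FPKM in control (log2 change 0.76, limma-trend adjusted p = 0.00474). VIT_207s0005g01710 had 9.01, 11.1 and 10.4 FPKM in cold, against 6.21, 6.07 and 6.57 FPKM in control (log2 change 0.61, limma-trend adjusted p = 0.00489). The libraries of a group lay fairly close together, save control library 1 of VIT_212s0059g00880, at 1.45 times the mean of the other controls. Without that library the log2 change of VIT_212s0059g00880 was 1.02.

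The other 3 smaller rises were less firm. VIT_218s0001g10030 had 6.28, 4.80 and 3.46 FPKM in cold, against 3.08, 2.19 and 1.68 FPKM in control (log2 change 0.81, limma-trend adjusted p = 0.0340). VIT_208s0058g00690 had 4.78, 4.24 and 3.54 FPKM in cold, against 3.33, 1.18 and 1.51 FPKM in control (log2 change 0.85, limma-trend adjusted p = 0.0483). Control library 1 was 2.48 times the mean of the other controls for VIT_208s0058g00690, and without it the log2 change was 1.14 (adjusted p = 0.00238). Both genes lost the call under median-of-ratios scaling, with adjusted p of 0.0540 and 0.0718, and under quantile normalization, with 0.0652 and 0.0873. Both also lost it without cold library 1, cold library 2, control library 2 or control library 3, with adjusted p between 0.0901 and 0.137, and VIT_208s0058g00690 also without cold library 3 (adjusted p = 0.0766) and with a pseudocount of 0.1 (0.0526). With no filter the adjusted p was 0.0531 for VIT_218s0001g10030 and 0.0713 for VIT_208s0058g00690.

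The smallest called rise was that of an abundant gene, VIT_214s0108g01280, with 93.9, 101 and 114 FPKM in cold, against 81.0, 82.7 and 81.5 FPKM in control. The log2 change was 0.32 (standard error 0.09, adjusted p by limma-trend = 0.0316). Under median-of-ratios scaling it was 0.23 (adjusted p = 0.0604), under quantile normalization 0.25 (adjusted p = 0.0813) and with the replicate number as a block 0.32 (adjusted p = 0.0810), and leaving out cold library 2, cold library 3, control library 2 or control library 3 gave adjusted p between 0.0704 and 0.0911. With a control mean of 81.7 ± 0.899 FPKM (± SD over 3 libraries) it had the highest mean of the WRKY genes in warm leaves and led in control libraries 2 and 3. In control library 1, VIT_208s0058g01390 at 91.5 FPKM and VIT_206s0004g07500 at 91.0 FPKM stood above it.

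Control library 1 differed from the other 2 controls across much of the family. It was the highest control library for 33 of the 44 tested members, or 75.0%, against 39.1% of all tested genes. It exceeded the mean of control libraries 2 and 3 at least 2 times for 13 members, or 29.5%, against 4.42% of all tested genes. The median ratio to that mean was 1.29 over the tested members and 0.989 over all tested genes. Control libraries 2 and 3 lay close to each other, with a median absolute difference of 0.12 on the log2(FPKM + 1) scale for the members as for all tested genes. Control library 1 lay further from their mean on that scale, by a median of 0.39 for the members and 0.20 for all tested genes. Its departure was thus not confined to this family. The labels name no difference in handling or batch between the control libraries, and what set library 1 apart was not tested.

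The widest case was VIT_208s0058g01390. It had 60.7, 98.1 and 87.5 FPKM in cold, against 91.5, 3.99 and 5.24 FPKM in control. Control library 1 thus lay within the range of the cold libraries and 19.8 times above the mean of the other controls. With all libraries the log2 change was 2.52 with a standard error of 1.06 and did not pass (limma-trend, adjusted p = 0.112). Without control library 1 it was 3.87 (adjusted p = 9.8e-05), and by mean FPKM cold was 17.8 times control libraries 2 and 3. With library weights on all 6 libraries it was 3.72 (limma-trend, adjusted p = 0.0015). Such weights give less influence to libraries that vary more across genes. Fits with them are therefore not independent of the fit without control library 1.

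VIT_206s0004g07500 and VIT_215s0046g01140 are abundant members with the same arrangement in milder form. VIT_206s0004g07500 had 107, 105 and 92.5 FPKM in cold, against 91.0, 36.5 and 31.7 FPKM in control (log2 change 1.08, limma-trend adjusted p = 0.0638). VIT_215s0046g01140 had 54.9, 51.8 and 46.8 FPKM in cold, against 43.7, 15 and 16.9 FPKM in control (log2 change 1.15, limma-trend adjusted p = 0.0530). Their cold and control libraries did not overlap, yet neither passed the limma-trend test with all libraries weighted equally. With library weights both passed on all 6 libraries, with adjusted p of 0.000871 for VIT_206s0004g07500 and 0.000722 for VIT_215s0046g01140, and limma-voom on the recovered reads called VIT_215s0046g01140 (adjusted p = 0.0471). Without control library 1 the log2 changes were 1.54 and 1.62 (adjusted p = 0.000168 and 0.000136).

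Among members that differed less, VIT_207s0031g00080 had 37.4, 39.3 and 34.6 FPKM in cold, against 34.4, 22.2 and 19.0 FPKM in control (log2 change 0.58, limma-trend adjusted p = 0.0689). VIT_204s0069g00920 had 17, 20.7 and 12.8 FPKM in cold, against 18.8, 8.77 and 7.81 FPKM in control (log2 change 0.55, limma-trend adjusted p = 0.232). VIT_202s0025g01280 had 4.49, 4.27 and 4.01 FPKM in cold, against 4.96, 2.75 and 2.60 FPKM in control (log2 change 0.28, limma-trend adjusted p = 0.322). In each of these genes control library 1 was close to, within or above the range of the cold libraries, and the other controls were lower. Without it their log2 changes were 0.82, 0.92 and 0.52, with adjusted p of 0.00141, 0.0102 and 0.0129. With library weights on all 6 libraries these 3 genes passed too, with adjusted p of 0.00158, 0.00609 and 0.0165.

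A change of direction came with VIT_213s0067g03140, which had 9.74, 8.52 and 9.64 FPKM in cold, against 30.6, 6.57 and 6.10 FPKM in control. Its log2 change was -0.21 with all libraries (limma-trend, adjusted p = 0.791) and 0.49 without control library 1 (adjusted p = 0.0102). Control library 1 was 4.84 times the mean of the other controls here and above every cold library.

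Without control library 1, 29 of the 44 members were called higher, against 24.4% of all tested genes, and 3 lower, against 16.0%. At least 2-fold rises then numbered 21, against 7.29% of all tested genes. The calls gained were those of the 7 genes just named from VIT_208s0058g01390 to VIT_213s0067g03140, and the call of VIT_204s0008g06600 was lost. Both fits share control libraries 2 and 3 and all cold libraries, so they are not independent. For a gene with control library 1 the highest control, leaving that library out raises the change by construction.

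**Figure D4:**
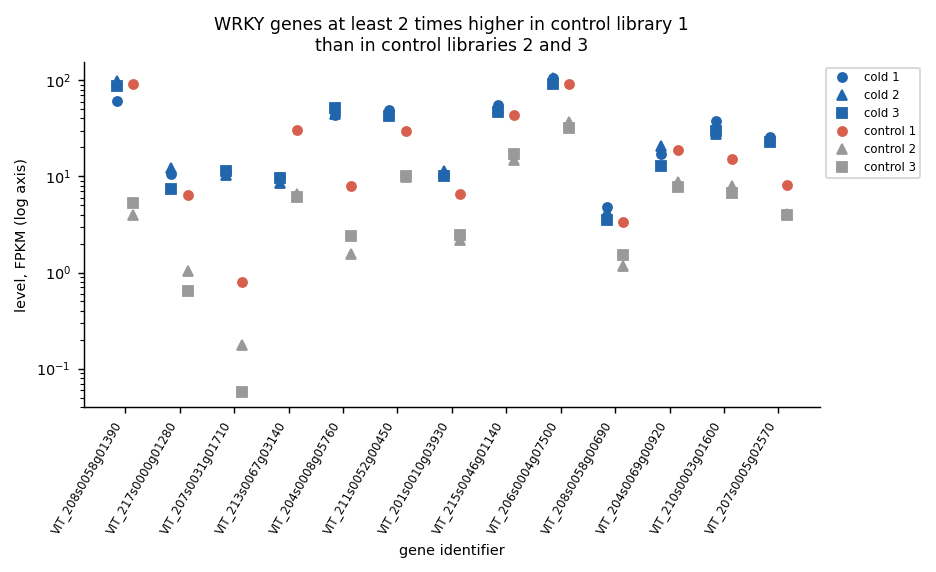
Level in FPKM (log axis) of the 13 tested WRKY genes (x axis) that were at least 2 times higher in control library 1 than in the mean of control libraries 2 and 3, with the 3 cold libraries to the left and the 3 control libraries to the right of each position. Control library 1 lies within or above the cold libraries for VIT_208s0058g01390, VIT_204s0069g00920 and VIT_213s0067g03140 and between the cold libraries and the other controls for the rest.

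The cold libraries also had an order. Library 3 gave the lowest cold value for 26 of the 44 tested members, or 59.1%, against 27.7% of all tested genes. It did so for 13 of the 16 members that rose at least 2-fold. The matching share of all genes that rose at least 2-fold is not given here, so the 13 may not be particular to the family. An extreme case was VIT_204s0069g00970, with 3.52, 1.91 and 0.324 FPKM in cold, against 0.330, 0.251 and 0.415 FPKM in control. Its cold library 3 lay within the control range. The log2 change of 0.96 did not pass (limma-trend, adjusted p = 0.126), while it was 1.45 without cold library 3 (adjusted p = 0.00983) and 1.14 with library weights (adjusted p = 0.0220).

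Falls were few and small. VIT_207s0005g01520 had 4.77, 5.0 and 4.61 FPKM in cold, against 8.51, 10.3 and 10.2 FPKM in control, a log2 change of -0.88 (standard error 0.10, adjusted p by limma-trend = 0.00160). VIT_204s0023g00470 had 3.70, 4.19 and 3.66 FPKM in cold, against 6.52, 7.25 and 6.66 FPKM in control, a log2 change of -0.69 (standard error 0.10, adjusted p by limma-trend = 0.00289). Both were lower in every cold library than in any control and were called in every alternative. By mean FPKM VIT_207s0005g01520 stood at 0.495 of its control level.

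The other 2 falls were less firm. VIT_214s0081g00560 had 3.83, 3.57 and 4.82 FPKM in cold, against 8.13, 7.10 and 5.51 FPKM in control (log2 change -0.64, limma-trend adjusted p = 0.0233). Its call was lost without cold library 1, cold library 2 or control library 2, with adjusted p between 0.0722 and 0.0834, and with the replicate number as a block (adjusted p = 0.0730). VIT_204s0008g06600 had 1.15, 0.960 and 1.5 FPKM in cold, against 2.32, 2.22 and 1.82 FPKM in control (log2 change -0.51, limma-trend adjusted p = 0.0402). With any library but cold library 3 left out this call was lost, with adjusted p between 0.0608 and 0.124, and with the block it was 0.110. VIT_211s0037g00150, with 9.75, 11.6 and 12.0 FPKM in cold, against 16.4, 15.1 and 12.3 FPKM in control, just missed the threshold (log2 change -0.36, limma-trend adjusted p = 0.0715). It passed under median-of-ratios scaling (-0.45, adjusted p = 0.0315), under quantile normalization (adjusted p = 0.0296), with library weights (adjusted p = 0.0392) and without control library 3 (-0.47, adjusted p = 0.0389).

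Some members changed little if at all. For 11 of the 18 members that did not pass, the 95% interval lay within 2-fold in either direction on the log2(FPKM + 1) scale. In FPKM such an interval can reach beyond 2-fold for low genes. The 11 include VIT_202s0025g01280, VIT_206s0004g00230 and VIT_211s0037g00150, each of which passed in at least 1 alternative. VIT_219s0090g01720 had 10.2, 10.1 and 11.3 FPKM in cold, against 9.71, 10.8 and 11.6 FPKM in control, with an interval of -0.24 to 0.21 on the log2 scale. VIT_212s0057g00550 had 18.2, 18.8 and 21.0 FPKM in cold, against 23, 20.1 and 18.8 FPKM in control, with an interval of -0.33 to 0.16. VIT_201s0011g00220 had 6.61, 7.38 and 8.03 FPKM in cold, against 7.69, 6.67 and 7.01 FPKM in control, with an interval of -0.21 to 0.28. In these 3 genes the groups overlapped, and changes of 2-fold lie outside the intervals.

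Intervals of similar width were found for VIT_207s0141g00680 (-0.32 to 0.35) and VIT_219s0015g01870 (-0.39 to 0.13). VIT_207s0141g00680 averaged 5.78 ± 1.12 FPKM in cold and 5.67 ± 0.497 FPKM in control, and VIT_219s0015g01870 5.85 ± 0.662 FPKM in cold and 6.48 ± 0.531 FPKM in control (± SD over 3 libraries a group). VIT_216s0050g02510 averaged 7.41 ± 0.991 FPKM in cold and 6.85 ± 1.77 FPKM in control (± SD over 3 libraries a group), with an interval of -0.32 to 0.55. At lower levels, VIT_210s0003g05740 averaged 2.35 ± 0.406 FPKM in cold and 1.87 ± 0.189 FPKM in control, VIT_206s0004g00230 2.25 ± 0.515 FPKM in cold and 1.56 ± 0.557 FPKM in control, and VIT_208s0007g00570 0.947 ± 0.227 FPKM in cold and 1.23 ± 0.0265 FPKM in control (± SD over 3 libraries a group). None of these 3 passed the test with all libraries, and VIT_206s0004g00230 did with library weights (adjusted p = 0.0496).

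A further 11 members were read but averaged under 1 FPKM, and VIT_212s0055g00340 and VIT_216s0050g01480 were at 0 reads in all 6 libraries. The clearest difference among the 11 was that of VIT_217s0000g05810, with 34, 30 and 39 reads in cold, against 2, 0 and 3 reads in control. Together with VIT_219s0090g00840 it was one of the 2 members, among 55 such genes in the whole table, that had at most 3 reads in each control library and at least 30 in each cold library. Per depth the pooled reads of VIT_217s0000g05810 differed 17.2 times, with an exact 95% interval of 7.14 to 54.1 for counting error. When all genes above 0 were tested, its log2(FPKM + 1) change was 0.73 (limma-trend, adjusted p = 0.00131), and VIT_212s0028g00270 was called too (0.63, adjusted p = 0.0442).

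VIT_212s0028g00270 had 53, 56 and 34 reads in cold, against 19, 19 and 8 reads in control. VIT_210s0003g02810 had 26, 43 and 10 reads in cold, against 4, 3 and 0 reads in control (adjusted p = 0.0568 by limma-trend with no filter). VIT_214s0108g00120 had 11, 25 and 6 reads in cold, against 0, 2 and 0 reads in control (adjusted p = 0.0943 in the same fit). These 3 genes, and VIT_202s0154g00210 named next, had more reads in every cold library than in any control library, at counts that set the size only loosely. How many of all genes under the filter had this order is not given here. VIT_202s0154g00210 had 8, 11 and 8 reads in cold and 2, 5 and 3 in control, and VIT_202s0025g00420 had 2, 11 and 7 reads in cold and 1, 2 and 0 in control. VIT_207s0031g01840 had 13, 7 and 17 reads in cold and 8, 16 and 8 in control, and VIT_215s0021g01310 had 3, 3 and 16 reads in cold and 0, 7 and 2 in control. None of these 4 genes passed the test, with adjusted p of 0.0581 for VIT_202s0154g00210, 0.149 for VIT_202s0025g00420, 0.939 for VIT_207s0031g01840 and 0.570 for VIT_215s0021g01310.

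Besides the pair on chromosome field 04, scaffold field 0008, members with identifiers close to each other stood at very different levels. On scaffold field 0069, VIT_204s0069g00920 averaged 16.8 FPKM in cold and 11.8 FPKM in control, and VIT_204s0069g00970 averaged 1.92 FPKM in cold and 0.332 FPKM in control. VIT_204s0069g00980 had 2 reads in cold library 1, 1 in cold library 2 and none elsewhere. On scaffold field 0067 of chromosome field 13, VIT_213s0067g03140 averaged 9.30 ± 0.675 FPKM in cold and 14.4 ± 14.0 FPKM in control (± SD over 3 libraries a group). Its neighbour VIT_213s0067g03130 averaged 0.931 ± 0.515 FPKM in cold and 0.332 ± 0.253 FPKM in control (± SD over 3 libraries a group), with its lowest cold value in library 3. On scaffold field 0046 of chromosome field 15, VIT_215s0046g02150 had 1, 1 and 2 reads in cold and none in control, beside the strong rise of VIT_215s0046g02190. Reads shared between near-identical neighbours would make such values uncertain; the labels do not say how shared reads were counted.

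Summed over all 57 members, the level was 939, 928 and 862 FPKM in cold, against 653, 362 and 344 FPKM in control. The means were 910 ± 41.5 FPKM in cold and 453 ± 174 FPKM in control (± SD over 3 libraries a group), and the mean of control libraries 2 and 3 was 353 FPKM. No test was made on this sum, since the members were chosen with results known. The groups did not overlap, and control library 1 lay between the cold libraries and the other controls. The members took 0.211% ± 0.00997 of the reads in cold and 0.113% ± 0.0340 in control (± SD over 3 libraries a group). Members at 1 FPKM or more numbered 45, 45 and 42 in the cold libraries, against 37, 37 and 36 in the control libraries, with control library 1 level with control library 2.

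The make-up of the sum differed between the groups as well. VIT_210s0116g01200 supplied 12.9% ± 2.54 of it in cold and 5.08% ± 0.307 in control (± SD over 3 libraries a group). VIT_214s0108g01280 supplied 11.4% ± 1.66 in cold and 19.7% ± 6.30 in control (± SD over 3 libraries a group), with 12.4%, 22.9% and 23.7% in control libraries 1, 2 and 3. VIT_208s0058g01390 supplied 9.06% ± 2.26 in cold (± SD over 3 libraries), against 14.0%, 1.10% and 1.53% in control libraries 1, 2 and 3. The gene with the largest share in control libraries 2 and 3 was VIT_214s0108g01280, while in cold 4 genes stood side by side. These were VIT_210s0116g01200, VIT_214s0108g01280, VIT_206s0004g07500 and VIT_208s0058g01390, at means of 118, 103, 101 and 82.1 FPKM in cold. Each overlapped with the next in its range over the cold libraries, so their order there is not fixed by these data.

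**Figure D5:**
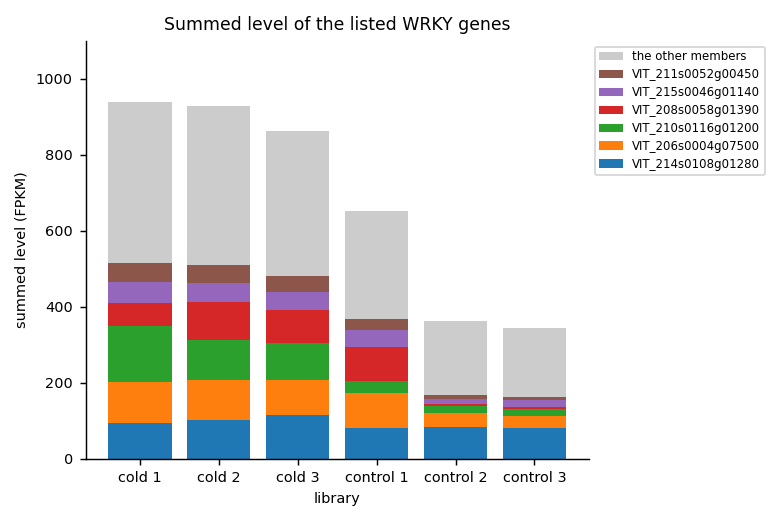
Summed level of the 57 WRKY genes in each library (bars, FPKM), split into the 6 most abundant members over all libraries and the rest. The cold bars reach 939, 928 and 862 FPKM, the bar of control library 1 reaches 653 FPKM and those of control libraries 2 and 3 reach 362 and 344 FPKM.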

How the data were processed

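RNA sequencing of 3 cold and 3 control leaf libraries was analysed from 1 table of FPKM values as the authors deposited it. The tools named, without roles, in the submitters' processing notes are STAR, HTSeq, DESeq2, cutadapt and FastQC. For the genome build, annotation and strand setting nothing is given in the sources used here. All columns matched a sample by title. Within each gene the values were whole multiples of 1 step, which gave library totals and whole reads (within 0.001 reads) for 25054 of 25054 genes above 0; these served for depth, read counts, intervals and 1 alternative. Intervals on reads are exact and cover counting error alone.

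All 17155 genes that averaged 1 FPKM or more were compared on log2(FPKM + 1) by limma-trend, two-sided, with Benjamini-Hochberg adjustment over all of them. Fold changes on this scale understate those of low genes; ratios of mean FPKM are given beside some. The fit was tested on simulated data that held no outlying library. That test does not bear on calls that depend on control library 1. All 14 alternatives (pseudocount, filter, scaling, library weights, replicate block, limma-voom, each library left out) kept the genes tested unless the filter was changed. The members and lists were chosen with earlier results of these data known. By the naming rule, members called at 2-fold or more, the 3 most abundant, neighbouring pairs and the smallest call were given in full; the single-library values of other members go beyond that rule and were added after they were seen. Lists by gene description (MAP kinases, VQ proteins, stilbene synthases, leaf markers), protein subgroups and promoter motifs could not be applied, because no table used here ties them to the identifiers. Chromosome and scaffold fields were read from the identifiers. Software: limma 3.58.1 in R 4.3.3; SciPy 1.17.1, pandas 2.3.3 and numpy 2.4.6 in Python 3.11.15.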

Additional observations from a re-analysis of the deposited data

How the results depend on the processing

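Of the 26 called members, 17 were called in every alternative that tested them, and 0 changed sign in any. The count of members called higher was 22 as reported, between 16 and 30 under the alternatives with all libraries and between 15 and 29 with 1 library left out. The 16 came from the stricter 5 FPKM limit, which left only 32 members to test, against 44 as reported. The 30 came from library weights, which also called more of all tested genes higher, 4931 against 3606 as reported. Neither end of the range is therefore particular to the family. At 2-fold or more it was 16 as reported, between 13 and 21 with all libraries and between 11 and 21 with 1 left out. Over all tested genes, rises of at least 2-fold numbered 1133 as reported. With all libraries they ranged from 684 (filter at 5 FPKM) to 1342 (pseudocount of 0.1), and with 1 left out from 1011 to 1251. Members called lower numbered 4 as reported, between 2 and 4 with 1 library left out, and 2 with the replicate block. They numbered 5 under median-of-ratios scaling, quantile normalization and library weights. These 3 settings called 2922, 3183 and 3549 of all tested genes lower, against 2295 as reported. With limma-voom on recovered reads, 1 member fell at least 2-fold. Deviations of libraries with the same replicate number from their group means correlated at -0.26, -0.13 and -0.28. With 3 libraries per group these correlations showed no pairing by number but cannot exclude it. The replicate block left 23 of the 26 calls. Over all tested genes, library weights called 3549 lower, a filter at a mean of 5 FPKM left 684 at least 2-fold higher, and leaving out 1 library gave 2253 to 4180 higher and 1425 to 2746 lower. The cause was not tested. Of the 18 members not called, 5 changed sign in 15 fits, all near 0 save VIT_213s0067g03140. That gene stood at 0.28 with library weights and between -0.59 and 0.49 with 1 library left out. Left-out libraries gave -0.038 to 0.29 for VIT_216s0050g02510, -0.022 to 0.10 for VIT_201s0011g00220, -0.11 to 0.12 for VIT_207s0141g00680 and -0.075 to 0.041 for VIT_219s0090g01720. Median-of-ratios scaling and quantile normalization gave -0.045 and -0.073 for VIT_201s0011g00220 and -0.066 and -0.10 for VIT_207s0141g00680. The same scalings put the median of all tested genes at 0.0008 and -0.03, against 0.08 as deposited.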

Other observations

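The identifiers of the 57 members spread over 18 chromosome fields, and those of the 16 that rose at least 2-fold over 11. Of these 16, only the pair VIT_204s0008g05750 and VIT_204s0008g05760 had a neighbour in the numbering of tested genes that also rose at least 2-fold, which is 2 of 16 or 12.5%. Over all genes that rose at least 2-fold, 38.8% had such a neighbour. No test was made of this difference, and the neighbours of the members with smaller rises were not looked up.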
